A study of Mus musculus with 12 samples.

Results

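Immunoglobulin genes and Jchain were followed in sorted mouse bone marrow cells, with 207 genes that reached 10 reads in at least 1 of 12 libraries out of 20696 genes with a read. They were chosen from the GENCODE M21 annotation as the genes of an immunoglobulin type other than pseudogenes, together with Jchain, and comprised 100 heavy, 91 kappa and 3 lambda variable genes, 7 heavy, 1 kappa and 4 lambda constant genes, and Jchain. The annotation held 269 such genes, of which 264 were in the files, and no diversity or joining segment reached the minimum. Just inside it stood Ighv3-3 with 10 reads and Ighv15-2 with 12 reads in their highest library. Just outside stood Ighv2-7 with 9 reads and Igkv4-62 with 5 reads. Every rearranged gene is measured here only through its germline reference sequence.

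The cells were Lin-Sca-1+Kit+ cells without Flk2, the fraction that holds blood stem cells and early progenitors, sorted from bone marrow by flow cytometry. There were 4 genotypes with 3 libraries each, and every library carried a mouse number of its own. Mdmx-Tg/Pu.1-URE-/- mice, called double mutants here, combine an Mdmx transgene with the loss of an upstream regulatory element (URE) that lies before Spi1, which encodes the transcription factor PU.1. Pu.1-URE-/- mice lack the element alone, Mdmx-Tg mice carry the transgene alone, and Wild-type mice have neither change. The labels give no age, strain or transgene promoter. The 6 libraries of the double mutant and of Pu.1-URE-/- are called libraries without the element, and the 6 of Mdmx-Tg and Wild-type libraries with it. Each library held 47271286 to 55067735 estimated reads. The gene of the sorting marker Kit stood at 165 to 261 CPM (reads per 1e6 after scaling) in libraries without the element. In those with it the level was 270 to 328 CPM. Flt3, the gene of Flk2, stood at 10.8 to 53.7 CPM without the element and 5.82 to 22.2 CPM with it. The 8 T cell markers summed to 2.13 to 11.7 CPM in libraries without the element and 3.41 to 15.7 CPM in those with it. Markers of neutrophils, a mature lineage outside the sorted fraction, were high in all 6 libraries without the element.

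Antibodies are built from a heavy chain and a kappa or lambda light chain, and each chain joins 1 variable gene, chosen by DNA rearrangement in a developing B cell, to a constant region. Plasma cells, the antibody-secreting end stage of B cells, make very large amounts of the secreted form of these mRNAs and of Jchain, the small protein that links IgM and IgA units into polymers. The bone marrow is a main site of B cell development and of long-lived plasma cells. The rearranged chains themselves were not assembled here, and a variable gene's share of the reads of its locus is given as a description of the library.

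Variable genes of one family are close copies, and this bears on how far a read can be given to 1 of them. The variable exons, all coding, of the genes that led most libraries, or that differed with the element, are shown 5′ to 3′ in the direction of the gene, from the GENCODE M21 transcripts of GRCm38, with the last bases of exons over 300 bases left off. For the heavy genes Ighv11-2 (chr12:114048248-114048547, minus strand) and Ighv11-1 (chr12:113981886-113982185, minus strand) capitals mark the bases at which the pair differs.
Ighv11-2: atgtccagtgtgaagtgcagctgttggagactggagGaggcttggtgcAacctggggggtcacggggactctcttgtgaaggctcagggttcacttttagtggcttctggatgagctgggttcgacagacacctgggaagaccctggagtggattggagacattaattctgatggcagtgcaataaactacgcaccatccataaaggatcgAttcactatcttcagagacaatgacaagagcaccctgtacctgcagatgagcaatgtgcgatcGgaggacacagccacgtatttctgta
Ighv11-1: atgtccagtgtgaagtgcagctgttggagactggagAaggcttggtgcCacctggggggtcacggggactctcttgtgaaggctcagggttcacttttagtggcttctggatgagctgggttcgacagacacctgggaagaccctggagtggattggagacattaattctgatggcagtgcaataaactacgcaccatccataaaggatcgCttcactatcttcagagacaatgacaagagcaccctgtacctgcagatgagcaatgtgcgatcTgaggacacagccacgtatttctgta
These exons of 307 bases differ at 4 positions, and their longest identical stretch is 162 bases, longer than a read of 100 bases. For Ighv1-77 (chr12:115861872-115862171, minus strand) and Ighv1-85 (chr12:116000033-116000332, minus strand) capitals again mark the differences.
Ighv1-77: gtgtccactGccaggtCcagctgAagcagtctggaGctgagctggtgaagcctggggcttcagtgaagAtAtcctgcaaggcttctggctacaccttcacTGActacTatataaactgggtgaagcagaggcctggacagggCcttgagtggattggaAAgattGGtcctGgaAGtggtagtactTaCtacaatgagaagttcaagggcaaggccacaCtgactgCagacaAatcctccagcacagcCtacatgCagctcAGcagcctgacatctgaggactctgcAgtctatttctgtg
Ighv1-85: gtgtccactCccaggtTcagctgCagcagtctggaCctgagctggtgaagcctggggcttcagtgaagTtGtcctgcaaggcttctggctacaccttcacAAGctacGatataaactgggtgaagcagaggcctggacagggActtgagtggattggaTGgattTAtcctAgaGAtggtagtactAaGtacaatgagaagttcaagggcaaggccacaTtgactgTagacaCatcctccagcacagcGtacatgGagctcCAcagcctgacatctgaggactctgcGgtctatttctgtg
This pair differs at 28 of 305 positions and shares no stretch above 34 bases. For the kappa genes Igkv14-126 (chr6:67896345-67896642, plus strand) and Igkv12-44 (chr6:69814631-69814928, minus strand) capitals mark the last in-frame cysteine codon, after which the germline part of the third complementarity-determining region begins.
Igkv14-126: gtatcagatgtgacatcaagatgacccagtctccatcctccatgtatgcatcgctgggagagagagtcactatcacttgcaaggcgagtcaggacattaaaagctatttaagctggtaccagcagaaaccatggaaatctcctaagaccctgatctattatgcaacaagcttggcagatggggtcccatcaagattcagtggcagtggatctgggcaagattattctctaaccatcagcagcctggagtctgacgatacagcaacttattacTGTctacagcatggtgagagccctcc
Igkv12-44: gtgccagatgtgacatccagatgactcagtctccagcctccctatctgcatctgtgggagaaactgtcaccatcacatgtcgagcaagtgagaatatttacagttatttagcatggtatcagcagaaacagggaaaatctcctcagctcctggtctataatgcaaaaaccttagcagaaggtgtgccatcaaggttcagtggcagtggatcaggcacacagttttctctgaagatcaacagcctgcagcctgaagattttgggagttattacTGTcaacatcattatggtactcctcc
No window of 100 bases in either kappa exon was found in another annotated variable gene or variable pseudogene. Among the other leading genes, 94 of 199 such windows of Igkv13-85 also occurred in Igkv13-84, and 14 of 208 of Ighv4-1 in Ighv4-2. Ighv1-77 shared 7 of 206 windows with Ighv1-75 or Ighv1-84, and Iglv1 shared 5 of 206 with Iglv2. Ighv11-1 held 18.0 to 21.1 reads per 100 reads of Ighv11-2 in all 11 libraries with reads of the pair, and the reads of the pair cannot be told apart with certainty.

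Immunoglobulin genes and Jchain took between 0.141% and 32.6% of all reads of a library, and the Wild-type libraries alone spanned most of that range. The shares were 0.141%, 4.39% and 2.49% in double mutants 1 to 3 and 0.605%, 1.18% and 3.30% in Pu.1-URE-/- 1 to 3. They were 4.11%, 7.74% and 11.8% in Mdmx-Tg 1 to 3, and 32.6%, 10.9% and 0.471% in Wild-type 1 to 3. Wild-type 1 and Wild-type 3 were thus the highest and the second lowest of the 12 libraries. The mean was 2.02% ± 1.66 without the element and 11.3% ± 11.3 with it (SD, n = 6 each), and the groups overlapped through Wild-type 3 and Mdmx-Tg 1. The mouse numbers fall into 3 series. In the lowest series the share was 0.141% in the double mutant, 0.605% in Pu.1-URE-/-, 4.11% in Mdmx-Tg and 32.6% in Wild-type. In the highest it was 4.39% and 2.49% in double mutants, 11.8% in Mdmx-Tg, and 10.9% and 0.471% in Wild-type. The middle series held no Wild-type library, with 1.18% and 3.30% in Pu.1-URE-/- and 7.74% in Mdmx-Tg.

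**Figure D1:**
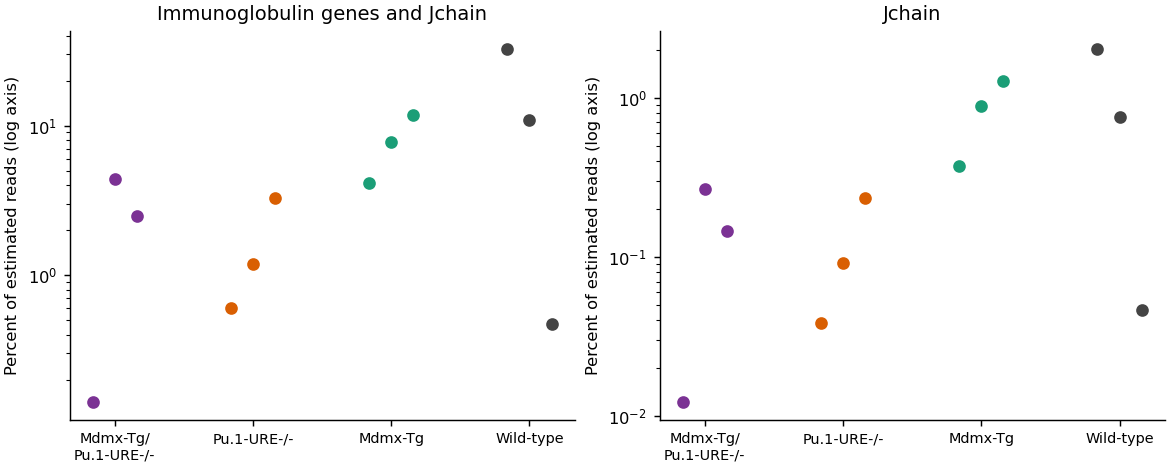
Percent of each library's estimated reads in immunoglobulin genes and Jchain together (left) and in Jchain alone (right), on log axes, with 1 point per library and the 4 genotypes along the horizontal axis. In both panels double mutant 1 is lowest and Wild-type 1 highest, with 0.141% and 32.6% on the left.

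Jchain (chr5:88519809-88527891, minus strand) stood at 119, 2659 and 1530 CPM in double mutants and at 430.2, 873 and 2541 CPM in Pu.1-URE-/-. It stood at 3343, 9190 and 12126 CPM in the Mdmx-Tg libraries and at 23699, 7312 and 388 CPM in the Wild-type libraries. All Mdmx-Tg libraries lay above all libraries without the element, and Wild-type 3 lay below 5 of those 6. The mean level was 1359 CPM without the element and 9343 CPM with it. The fitted log2 change for element loss was -2.77 ± 0.92 (SE), with an adjusted p of 0.0745 by edgeR's quasi-likelihood test, and was not called. It passed without Wild-type 3 (adjusted p = 0.0343) and by DESeq2 (0.00149). Per 100 reads of Ighm, Jchain had 16.6 to 19.9 reads in double mutants, 19.0 to 23.2 in Pu.1-URE-/-, 32.8 to 47.4 in Mdmx-Tg and 17.2 to 29.9 in Wild-type, so that the Mdmx-Tg range stood above the other 3. In bulk libraries fewer cells of a type and less RNA per cell cannot be told apart.

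IgM was the main heavy-chain class in every library. Ighm, the mu constant gene, took 99.7%, 99.4% and 97.6% of heavy constant reads in double mutants and 91.3%, 90.5% and 92.9% in Pu.1-URE-/-. It took 94.0%, 89.98% and 97.6% in Mdmx-Tg, and 97.2%, 98.9% and 97.4% in Wild-type. The 3 Pu.1-URE-/- shares lay below all double mutant and Wild-type shares and within the Mdmx-Tg range. In level, Ighm (chr12:113418558-113422730, minus strand) had 599.9, 15563 and 9246 CPM in double mutants and 2269, 3812 and 10953 CPM in Pu.1-URE-/-. It had 10177, 19385 and 31501 CPM in the Mdmx-Tg libraries, and 122190, 42582 and 1297 CPM in Wild-type. Its log2 change for element loss was -2.28 ± 0.92 (SE), with an edgeR adjusted p of 0.139, and DESeq2 gave 0.00929.

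The switched classes differed from library to library. Ighg3, the IgG3 constant gene, was at 0 CPM, 0.037 CPM and 0 CPM in double mutants 1 to 3, the middle value being 2 reads, and at 13.5, 171 and 423 CPM in Pu.1-URE-/-. In Mdmx-Tg it was at 419, 1345 and 114 CPM, and in Wild-type at 3018, 311 and 0.046 CPM. Wild-type thus held the highest library and also 1 near 0. The mean was 101 CPM without the element and 868 CPM with it, 8.57 times higher with it, and the gene was called lower on element loss (log2 change -8.89 ± 1.99 SE, edgeR adjusted p = 0.0158). The fitted value weights the libraries near 0 and is no measure of the mean ratio. The call was lost in 4 of 18 alternatives, which were the replicate block (adjusted p = 0.0661) and leaving out double mutant 1 (0.0571), 2 (0.0531) or 3 (0.0525).

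Ighg1, for IgG1, had 228 and 85.4 CPM in Pu.1-URE-/- 2 and 3 and 433 CPM in Mdmx-Tg 2, and at most 2.15 CPM in the other 9 libraries. Ighg2b, for IgG2b, reached 6.24% of heavy constant reads in Pu.1-URE-/- 1 and had no read in Pu.1-URE-/- 2 and 3 or in double mutant 1. Igha, for IgA, reached 2.80% in Pu.1-URE-/- 3 and had no read in Wild-type 3. On element loss Ighg1, Ighg2b, Ighg2c and Igha were not called (edgeR adjusted p from 0.212 to 0.919), while DESeq2 called Ighg1 (adjusted p = 0.00862). Ighd, for IgD, had 70.0 reads in double mutant 1, 12 reads in Wild-type 1 and none elsewhere, and it was not tested. Ighg2c, for IgG2c, exceeded 9.42 CPM only in Mdmx-Tg 2 (74.3 CPM) and Wild-type 1 (90.6 CPM). Ighe, for IgE, had no read in any library, which allows at most 3 reads in each, and is not among the 207.

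The mu gene makes a secreted and a membrane form by alternative use of its last exons, the membrane form being the B cell receptor's heavy chain. By the transcript estimates, the membrane form was 16.7%, 0.893% and 1.45% of Ighm reads in double mutants and 3.00%, 2.14% and 1.13% in Pu.1-URE-/-. It was 0.639%, 0.543% and 0.474% in Mdmx-Tg, and 0.486%, 0.355% and 0.548% in Wild-type. All 6 shares without the element lay above all 6 with it. The level of the membrane form itself did not separate the groups. It was 100.4, 139 and 134 CPM in double mutants, 68.2, 81.7 and 124 CPM in Pu.1-URE-/-, 65.1, 105 and 149 CPM in the Mdmx-Tg libraries, and 594, 151 and 7.10 CPM in Wild-type. The secreted form ranged from 499 to 15424 CPM without the element and from 1290 to 121596 CPM with it. Both forms share their first exons, so the split of reads between them is Salmon's estimate, and the share was not tested.

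**Figure D2:**
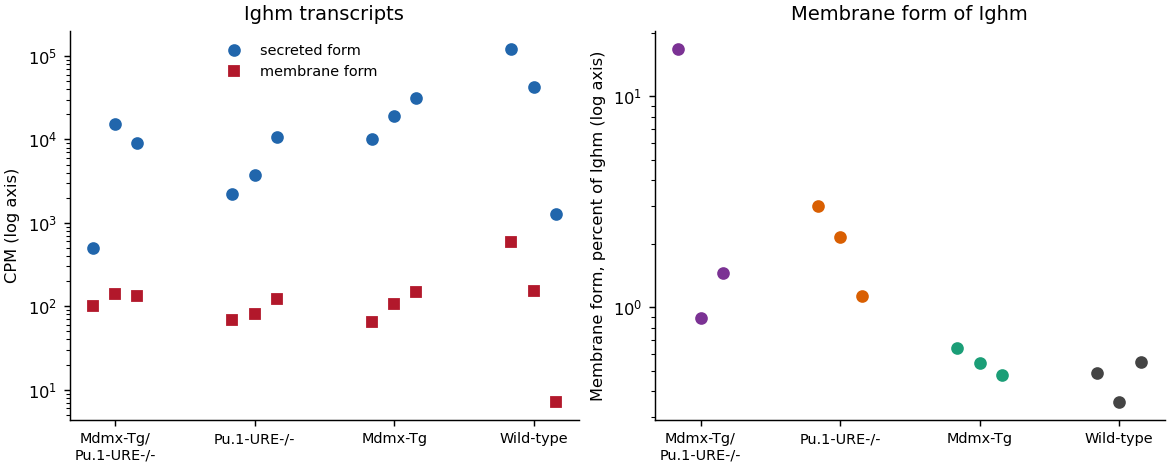
CPM of the secreted (circles) and membrane (squares) transcript of Ighm per library on a log axis (left), and the membrane form as percent of Ighm reads on a log axis (right), by genotype. The secreted form spans 499 to 121596 CPM, while the membrane share is 0.893% or more in each library without the element and 0.639% or less in each with it.

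By constant regions kappa chains outnumbered lambda chains in every library. Igkc, the only kappa constant gene, took 98.0%, 98.0% and 96.2% of light-chain constant reads in double mutants and 98.1%, 77.9% and 71.7% in Pu.1-URE-/-. It took 89.8%, 80.5% and 93.3% in Mdmx-Tg, and 53.8%, 73.3% and 86.4% in Wild-type. The double mutant shares lay above all Mdmx-Tg and Wild-type shares, and Pu.1-URE-/- spread over most of the range. By variable genes kappa took 91.4% to 97.1% in double mutants, 64.6% to 97.2% in Pu.1-URE-/-, 73.4% to 90.1% in Mdmx-Tg and 45.2% to 81.7% in Wild-type. In level, Igkc (chr6:70726435-70726966, plus strand) had 354, 14262 and 8170 CPM in double mutants and 2130, 2553 and 8270 CPM in Pu.1-URE-/-, against 11882, 23506 and 37952 CPM in the Mdmx-Tg libraries and 69387, 21905 and 1099 CPM in the Wild-type libraries. It was not called on element loss (log2 change -2.26 ± 0.92 SE, edgeR adjusted p = 0.140, DESeq2 0.0112).

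Within lambda the shares of the constant genes differed between libraries. Iglc1 made up 0.542%, 14.7% and 1.46% of lambda constant reads in double mutants and 19.6%, 8.87% and 37.5% in Pu.1-URE-/-. It made up 21.5%, 78.2% and 68.1% in Mdmx-Tg, and 92.2%, 95.7% and 71.5% in Wild-type. All Wild-type shares lay above all shares without the element. Iglc2 led lambda in all 3 double mutants (90.2%, 51.0% and 95.6%) and Iglc3 in Pu.1-URE-/- 1 and 2 (59.8% and 72.2%). The lambda reads behind these shares ranged from 369 in double mutant 1 to 2637719 in Wild-type 1. Of lambda variable reads, Iglv1 held 100%, 83.6% and 41.8% in double mutants and 97.5%, 83.6% and 61.9% in Pu.1-URE-/-. It held 49.5%, 83.9% and 78.0% in Mdmx-Tg, and 93.5%, 99.9% and 72.1% in Wild-type, so the genotypes overlapped. The 100% in double mutant 1 rests on 295 reads. How reads were divided among the lambda constant genes was not tested.

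Iglc1 (chr16:19061618-19062071, minus strand) had 0.040, 43.7 and 4.70 CPM in double mutants and 8.07, 64.4 and 1228 CPM in Pu.1-URE-/-. It had 290.3, 4455 and 1867 CPM in the Mdmx-Tg libraries, and 54858, 7654 and 124 CPM in Wild-type. Only Pu.1-URE-/- 3 of the libraries without the element reached the range of those with it. Iglc1 fell on element loss (mean of 225 CPM without the element and 11541 CPM with it, log2 change -6.34 ± 1.83 SE, edgeR adjusted p = 0.0467). The call was lost in 12 of 18 alternatives, in 10 of them by leaving out a single library: double mutant 1 (adjusted p = 0.0879) or 3 (0.112), Pu.1-URE-/- 1 (0.103), 2 (0.0950) or 3 (0.0528), Mdmx-Tg 1 (0.0578), 2 (0.0797) or 3 (0.0662), or Wild-type 1 (0.0907) or 2 (0.0743). Iglc2 and Iglc3 were not called (adjusted p of 0.345 and 0.639), and Iglc4 did not exceed 1.42 CPM in any library.

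**Figure D3:**
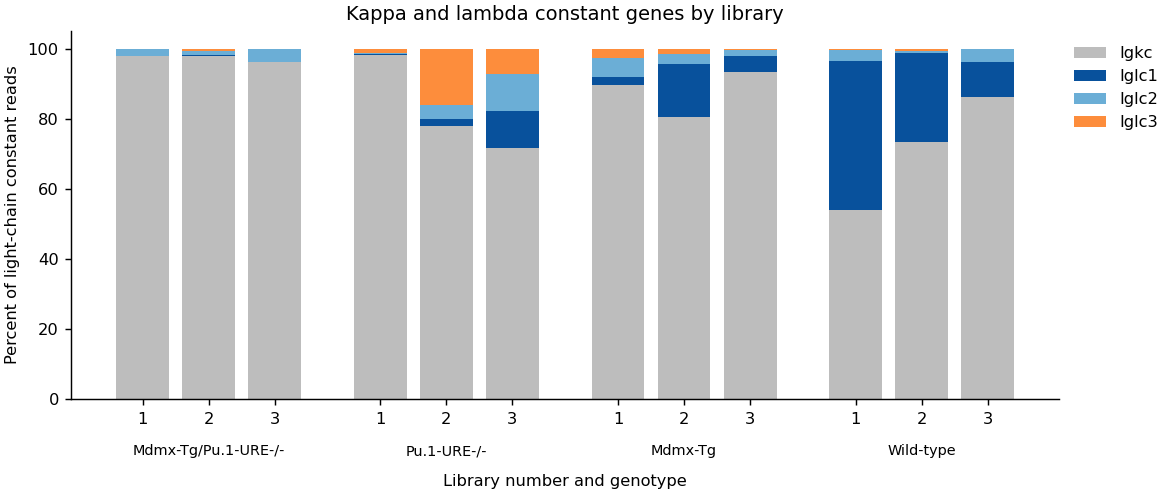
Stacked bars give the percent of light-chain constant reads in Igkc, Iglc1, Iglc2 and Iglc3 for each of the 12 libraries, grouped by genotype. The Iglc1 part is widest in Wild-type 1, where kappa takes 53.8%, and hardly visible in the 3 double mutants, where kappa takes 96.2% or more.

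Single variable genes took a large part of each locus, and the double mutants held the most extreme cases. The leading heavy variable gene had 16.8%, 74.6% and 62.3% of heavy variable reads in double mutants and 33.8%, 36.0% and 19.5% in Pu.1-URE-/-. It had 26.3%, 24.3% and 24.8% in Mdmx-Tg, and 38.9%, 30.5% and 22.7% in Wild-type. The leading kappa gene had 52.7%, 86.1% and 61.8% of kappa variable reads in double mutants and 24.1%, 17.3% and 17.6% in Pu.1-URE-/-, against 13.7%, 19.0% and 17.7% in Mdmx-Tg and 26.8%, 33.9% and 16.9% in Wild-type. All 3 double mutant kappa shares thus lay above the other 9 libraries, while their heavy shares held both the lowest and the 2 highest values. These shares were given no test. Counting error alone left them uncertain by at most 1.08 percentage points (Wilson interval, 95%), since the thinnest kappa set, in double mutant 1, had 9736 reads and the thinnest heavy set 4578.

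An inverse Simpson number gives how many equally common genes would yield the same concentration of reads. For kappa it was 2.82, 1.35 and 2.51 in double mutants, 10.02, 9.91 and 13.3 in Pu.1-URE-/-, 15.4, 9.88 and 13.6 in Mdmx-Tg, and 9.08, 6.82 and 11.8 in Wild-type. For heavy genes it was 12.9, 1.72 and 2.44 in double mutants, 7.24, 6.30 and 12.9 in Pu.1-URE-/-, 8.23, 6.16 and 8.62 in Mdmx-Tg, and 5.19, 5.32 and 8.19 in Wild-type. Double mutant 1 therefore stood with the lowest libraries for kappa and among the highest for heavy genes. Kappa variable genes with 10 or more reads numbered 7, 25 and 30 in double mutants, 27, 23 and 53 in Pu.1-URE-/-, 48, 44 and 69 in Mdmx-Tg, and 77, 55 and 24 in Wild-type, a count that also moves with the reads available.

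One heavy and kappa pair recurred across genotypes. Ighv11-2 led the heavy locus in 5 libraries and Igkv14-126 the kappa locus in 5, and both led in the same 4, which were double mutants 2 and 3, Pu.1-URE-/- 1 and Wild-type 2. In the mouse this pair of germline genes is known from B-1 cells, an innate-like B cell lineage, whose antibodies of this pair bind phosphatidylcholine. Ighv11-2 had 0%, 74.6% and 62.3% of heavy variable reads in double mutants, 33.8%, 36.0% and 7.66% in Pu.1-URE-/-, 14.0%, 23.2% and 13.3% in Mdmx-Tg, and 8.73%, 30.5% and 10.4% in Wild-type. Igkv14-126 had 0%, 86.1% and 61.8% of kappa variable reads in double mutants, 24.1%, 15.7% and 6.71% in Pu.1-URE-/-, 7.31%, 19.0% and 5.71% in Mdmx-Tg, and 8.49%, 33.9% and 5.24% in Wild-type. Apart from double mutant 1, which had no read of either, every library held both.

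The levels of the pair overlapped between genotypes. Ighv11-2 had 0, 2037 and 969 CPM in double mutants and 111, 182 and 124 CPM in Pu.1-URE-/-, against 158, 567 and 380.1 CPM in the Mdmx-Tg libraries and 1133, 1371 and 17.3 CPM in the Wild-type libraries. Its mean was 570.3 CPM without the element and 604 CPM with it (log2 change -0.58 ± 1.27 SE, edgeR adjusted p = 0.836). Igkv14-126 averaged 1762 CPM without the element and 2072 CPM with it (log2 change -0.98 ± 1.37 SE, adjusted p = 0.716). Its highest library was double mutant 2 with 6728 CPM.

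The other leading genes varied by library. Ighv7-1, known with Igkv7-33 from antibodies against phosphorylcholine, led the heavy locus in Pu.1-URE-/- 3, Mdmx-Tg 3 and Wild-type 3 (19.5%, 24.8% and 22.7%), and Igkv7-33 led kappa in Wild-type 3 at 16.9%. Ighv4-1 led Mdmx-Tg 1 and Wild-type 1, and Ighv1-5 led Mdmx-Tg 2. For kappa, Igkv15-103 led Pu.1-URE-/- 3 and Mdmx-Tg 1, Igkv2-137 led Pu.1-URE-/- 2, Igkv8-30 led Mdmx-Tg 3, and Igkv12-44 led Wild-type 1. Double mutant 1, with the fewest immunoglobulin and Jchain reads, was led by Ighv1-77 and by Igkv13-85 (16.8% and 52.7%), which led no other library. Iglv1 led the lambda locus in 11 libraries, and in double mutant 3 it held 41.8% beside 57.6% of Iglv2.

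**Figure D4:**
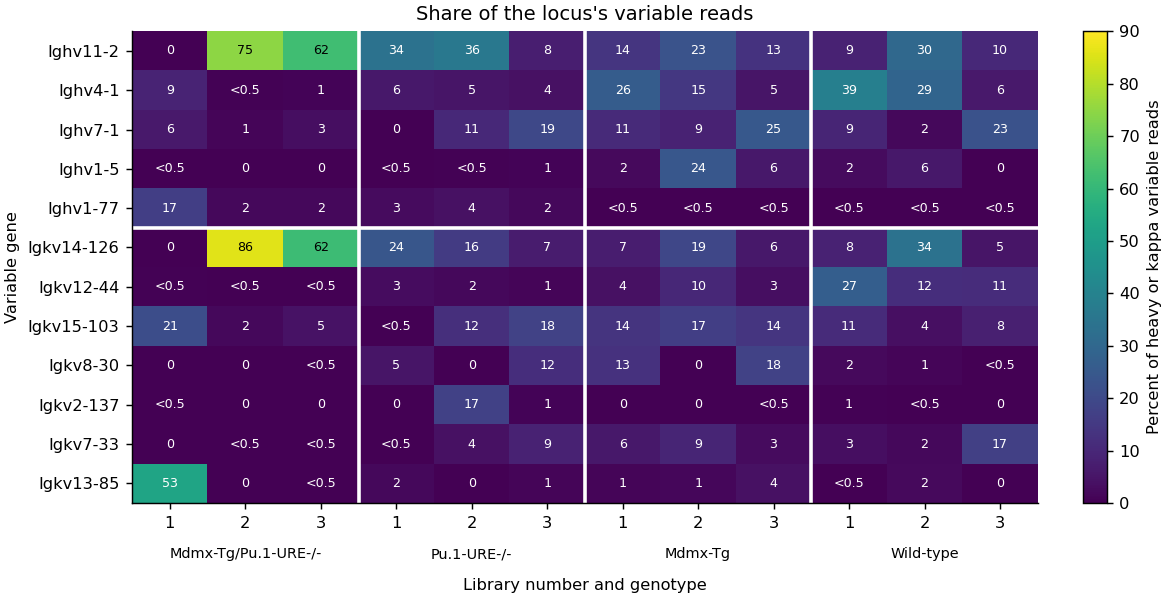
Percent of heavy (upper 5 rows) or kappa (lower 7 rows) variable reads for each gene that led a library, with 1 column per library grouped by genotype, as numbers and colour. Ighv11-2 and Igkv14-126 reach 74.6% and 86.1% in double mutant 2, while double mutant 1 has 0% of both.

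The fit over all 15012 tested genes included 175 of the 207 members. The other 32 did not pass the filter on low counts. On element loss, 2 members were called higher and 20 lower between the 6 libraries without the element and the 6 with it, which is 12.6% of the members tested against 11.9% of all genes tested. By direction, 8.08% of all genes were called higher and 3.81% lower. In total the members' share was thus close to that of all genes. The median log2 change of the tested members was -2.82, and that of all tested genes was -0.000451. The filter asked for its minimum count, scaled to library size, in at least 3 libraries, so a gene can pass through 1 genotype alone. These counts therefore describe the tested members and not all 207. The count was 8 without double mutant 1, 13 without 2 and 11 without 3; 11, 10 and 14 without Pu.1-URE-/- 1, 2 and 3; 14 without Mdmx-Tg 2; and 13 without Wild-type 2. Without Wild-type 1 it was 16 (5 higher, 11 lower), and without Wild-type 3 it was 27 (3 higher, 24 lower). The calls without Pu.1-URE-/- 3 were all lower.

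Of the 20 members called lower, 13 were kappa variable genes, 5 heavy variable genes, and the others Ighg3 and Iglc1. Igkv12-44 had the smallest p. It stood at 0.743, 0.019 and 0.040 CPM in double mutants and 39.9, 35.7 and 56.9 CPM in Pu.1-URE-/-, against 289.9, 1348 and 720.0 CPM in the Mdmx-Tg libraries and 11013, 1559 and 75.2 CPM in the Wild-type libraries. It was the only member tested whose 6 libraries without the element all lay below the 6 with it, where 1.89% of all tested genes did so. The mean was 22.2 CPM without the element against 2501 CPM with it, 113 times higher with the element (log2 change -9.05 ± 1.30 SE, edgeR adjusted p = 0.00138). Wild-type 1, at 11013 CPM, makes up most of the higher mean. As for Ighg3, the fitted value is no measure of the mean ratio.

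Ighv4-1 had 8.22, 11.5 and 14.5 CPM in double mutants and 19.0, 25.2 and 62.7 CPM in Pu.1-URE-/-, against 296, 359 and 144 CPM in the Mdmx-Tg libraries and 5048, 1298 and 10.3 CPM in the Wild-type libraries. Only Wild-type 3 overlapped the libraries without the element. The gene fell on element loss (log2 change -5.22 ± 1.01 SE, edgeR adjusted p = 0.00742). Igkv3-10 ranged from 0 to 94.95 CPM without the element and from 15.7 to 752 CPM with it (adjusted p = 0.00841). Ighv1-5 ranged from 0 to 15.1 CPM without the element and from 0 to 594 CPM with it (adjusted p = 0.00918). Igkv7-33 ranged from 0 to 459 CPM without the element and from 111 to 1344 CPM with it (adjusted p = 0.0131). For these 5 variable genes none of the 18 alternatives lost the call on element loss, an alternative without an adjusted p counting as no loss.

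Both members called higher were heavy variable genes of one family. Ighv1-77 had 15.4, 55.5 and 29.3 CPM in double mutants and 8.59, 21.2 and 31.9 CPM in Pu.1-URE-/-, against 0.517, 1.63 and 1.24 CPM in the Mdmx-Tg libraries and 0.429, 5.06 and 0.015 CPM in the Wild-type libraries. Its groups did not overlap, and its mean was 27.0 CPM without the element against 1.48 CPM with it, 18.2 times higher (log2 change 4.18 ± 0.97 SE, edgeR adjusted p = 0.0186). Ighv1-85 had 9.74, 30.6 and 15.9 CPM in double mutants and 5.36, 12.4 and 18.3 CPM in Pu.1-URE-/-, against 0.115, 1.24 and 0.233 CPM in the Mdmx-Tg libraries and 1.17, 1.67 and 0 CPM in the Wild-type libraries (log2 change 4.41 ± 1.03 SE, adjusted p = 0.0195). Both calls were lost without Pu.1-URE-/- 3 (adjusted p of 0.0513 and 0.0544), and that of Ighv1-77 also without Mdmx-Tg 1 (0.0508). The groups of Ighv1-31 and Ighv1-84 did not overlap either, which makes 4 of 175 members against 4.89% of all tested genes.

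Reads of these genes stood in narrow ratios in the libraries without the element. Per 100 reads of Ighv1-77 there were 54.2 to 63.2 reads of Ighv1-85, 49.8 to 69.1 of Ighv1-66 and 7.96 to 14.5 of Ighv1-31 in those 6. With the element Ighv1-77 had only 1 to 279 reads, and its ratios there are not compared. Whether 1 source sequence was divided among them was not tested.

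**Figure D5:**
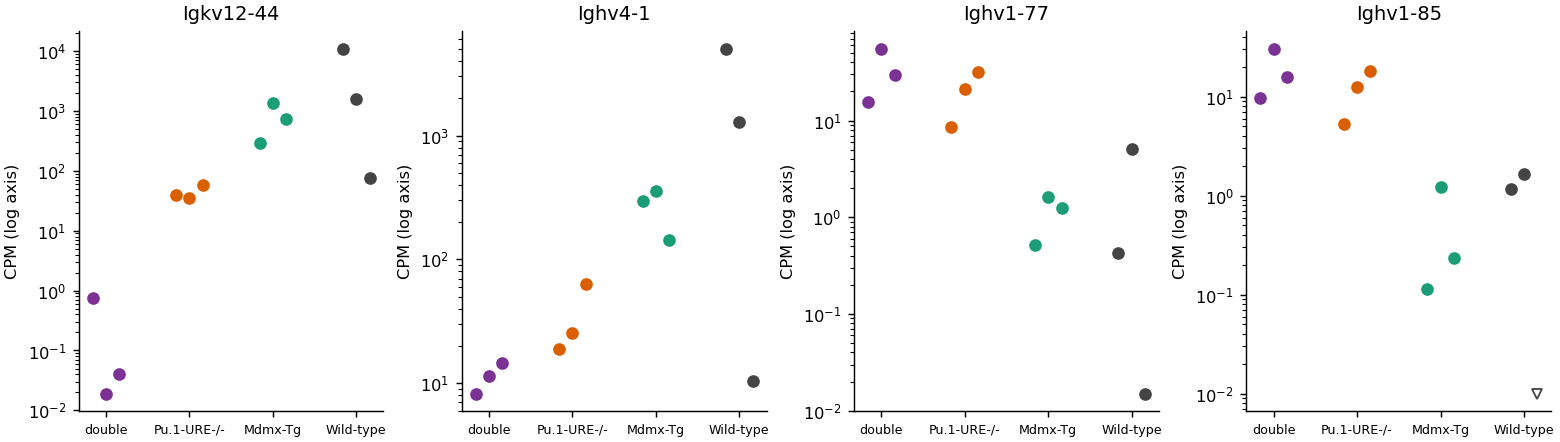
CPM of Igkv12-44, Ighv4-1, Ighv1-77 and Ighv1-85 per library on log axes, by genotype, where double stands for Mdmx-Tg/Pu.1-URE-/- and an open triangle at 0.01 marks a value under 0.01 CPM. Igkv12-44 is at 56.9 CPM or less in each library without the element and at 75.2 CPM or more in each with it, and Ighv1-77 runs the other way.

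Between single genotypes few members were called. In double mutants against Wild-type 7 were lower and none higher, with 3.34% of all genes called (2.47% higher, 0.873% lower). They were Igkv12-44, Igkv3-10, Ighv4-1, Igkv7-33, Ighg3, Ighv10-3 and Ighv1-5. In double mutants against Mdmx-Tg 5 were lower and none higher, with 2.32% of all genes called (1.67% higher, 0.646% lower). These were Igkv12-44, Igkv7-33, Igkv3-10, Ighg3 and Ighv1-5. In Pu.1-URE-/- against Wild-type Igkv12-44 and Ighv4-1 were lower, with 4.71% of all genes called (3.84% higher, 0.866% lower). All 3 comparisons use libraries of the element comparison and are no separate evidence.

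These pairwise counts depended on single libraries. For double mutants against Wild-type the 7 became 1, 3 and 2 without double mutant 1, 2 and 3, 4 without Pu.1-URE-/- 2, 4 without Mdmx-Tg 1, and 3 each without Wild-type 1 and 2. All of these calls were lower apart from 1 higher without Wild-type 2. For double mutants against Mdmx-Tg the 5 became 1, 2 and 1 without double mutant 1, 2 and 3, 2, 1 and 3 without Pu.1-URE-/- 1, 2 and 3, 1 each without Mdmx-Tg 1 and 2, 2 without Wild-type 2, and 8 without Wild-type 3. There 1 of the 2 and 2 of the 8 were higher, and the others were lower. For Pu.1-URE-/- against Wild-type none was called without double mutant 3, Pu.1-URE-/- 1 or 2, Mdmx-Tg 1 or 3, or Wild-type 1. In that comparison 1 was lower without double mutant 1 or 2, Pu.1-URE-/- 3 or Mdmx-Tg 2, and 4 were lower without Wild-type 3. Without Wild-type 2 the single call was higher.

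The transgene showed no called member by edgeR's quasi-likelihood test. In Mdmx-Tg against Wild-type 0 of 175 were called, with 0% of all genes called, 12 at an unadjusted p under 0.05, and 3 by DESeq2. Leaving out Mdmx-Tg 3 gave 1 member higher, and leaving out Wild-type 3 gave 1 lower. In double mutants against Pu.1-URE-/- 0 were called, again with 0% of all genes, 32 at an unadjusted p under 0.05, and 24 by DESeq2. The interaction of transgene and element gave 0 called with 0% of all genes, 16 at an unadjusted p under 0.05, and 16 by DESeq2. For the counts at an unadjusted p and by DESeq2 the share of all genes is not given here. They therefore cannot be read as an effect on the members. The log2 difference of Ighm was -1.44 ± 1.27 (SE) in Mdmx-Tg against Wild-type and 0.58 ± 1.25 in double mutants against Pu.1-URE-/-, neither of them called.

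Markers of antibody-secreting cells were present, most of all in Wild-type 1. Sdc1, the plasma cell surface proteoglycan, had 1.57, 5.17 and 4.42 CPM in double mutants and 7.50, 6.92 and 11.7 CPM in Pu.1-URE-/-, against 1.59, 11.5 and 35.6 CPM in the Mdmx-Tg libraries and 145, 30.7 and 2.26 CPM in the Wild-type libraries. Tnfrsf17, the survival receptor BCMA, had at most 3.41 CPM without the element and 26.3 CPM in Wild-type 1. Neither was called on element loss (edgeR adjusted p of 0.0949 and 0.296), but Sdc1 passed without Wild-type 3 (0.0403) and by DESeq2 (0.00561). Of 15 plasma cell markers all were tested, 1 was lower, 0 were higher and the median log2 change was -2.45. That gene was Slamf7 (adjusted p = 0.0349), whose call was lost in 10 of 18 alternatives, among them without double mutant 1 (0.0865) or 2 (0.0709), Pu.1-URE-/- 1 (0.0935) or 2 (0.0669), Mdmx-Tg 2 (0.0613) or 3 (0.0546), or Wild-type 1 (0.0921) or 2 (0.0553). Of the 15 markers 14 were highest in Wild-type 1, the library with 32.6% immunoglobulin and Jchain reads. Their summed level ran from 859 to 1701 CPM without the element and from 529 to 3980 CPM with it. Of that, Xbp1 alone held 248 to 981 CPM without the element and 97.6 to 1285 CPM with it. The sum therefore does not stand for the other markers. The part of the markers in the results was not tested.

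Markers of mature B cells were low. Pax5, the B cell identity factor, had no read in any library. Cd79a, a signalling chain of the B cell receptor, had 1.39, 9.04 and 8.74 CPM in double mutants and 1.66, 1.78 and 12.9 CPM in Pu.1-URE-/-, against 11.5, 30.1 and 56.5 CPM in the Mdmx-Tg libraries and 103, 21.4 and 0 CPM in the Wild-type libraries. It was not called (edgeR adjusted p = 0.187) but passed without Wild-type 3 (0.0435). Its partner Cd79b ran from 10.3 to 29.6 CPM without the element and from 36.5 to 95.7 CPM with it, and was called lower (log2 change -1.55 ± 0.32 SE, edgeR adjusted p = 0.0106). Of the 11 mature B cell markers 5 were tested, and Cd79b was the only one called. Their summed level was 14.3 to 48.5 CPM without the element and 43.2 to 284.5 CPM with it, and their part in the results was not tested.

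Of the enzymes of recombination, Dntt was detected in 11 libraries while the recombinase was at or near 0. Rag1 and Rag2, the recombinase of B and T cell precursors, did not exceed 0.161 CPM and 0.113 CPM. Dntt, which adds bases at heavy-chain joints in precursors, had 119, 74.7 and 65.3 CPM in double mutants and 26.6, 25.1 and 33.7 CPM in Pu.1-URE-/-. It had 0.019, 3.12 and 2.71 CPM in the Mdmx-Tg libraries, and 4.65, 0 and 7.37 CPM in Wild-type. Dntt was called higher on element loss (log2 change 4.15 ± 1.06 SE, edgeR adjusted p = 0.0291), and its groups did not overlap. The call was lost in 9 of 18 alternatives, among them without double mutant 1 (0.0713), Pu.1-URE-/- 1 (0.0577) or 3 (0.0663), Mdmx-Tg 2 (0.0525) or 3 (0.0581), or Wild-type 1 (0.0661) or 3 (0.0530). It was the only one of 13 tested genes of transcription, class switching and recombination that was called, and the only one of 6 tested pro-B and pre-B cell markers.

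Some genes of Fc receptors, which bind antibody, were called higher on element loss. Of 6 tested immunoglobulin receptors and B cell receptor partners 3 were higher on element loss and 1, Cd79b, was lower. The others, Cd79a and the Fc receptor gene Fcgrt, were not called, with log2 changes of -2.64 and -1.02 (edgeR adjusted p of 0.187 and 0.0638). Fcer1g, the common Fc receptor gamma chain, had 196 to 580.3 CPM without the element and 27.1 to 72.3 CPM with it (log2 change 2.75 ± 0.25 SE, edgeR adjusted p = 8.68e-05). Fcgr3, an activating IgG receptor, had 46.6 to 191 CPM without the element and 5.11 to 33.2 CPM with it (adjusted p = 0.00178). Fcgr2b, the inhibitory IgG receptor, had 15.8 to 60.2 CPM without the element and 5.30 to 18.6 CPM with it (adjusted p = 0.0118). Of 15 secretory pathway genes that plasma cells express highly none was called, with a median log2 change of -0.14, and 14 were highest in Wild-type 1. Several of them are also among the plasma cell markers, so these counts and those of the markers are not separate observations.

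Markers of other cell types differed with the element as well. All 7 neutrophil markers were higher without it, their summed level running from 23795 to 92156 CPM against 3.29 to 18.1 CPM with it. Of 5 tested monocyte and macrophage markers 2 were higher and 2 lower, no erythroid marker of 5 was called, and of the 4 tested T cell markers none was called. Among 6 sorting genes Flt3 and Ly6g were higher and Kit and Ptprc lower. The call of Kit (edgeR adjusted p = 0.0482) was lost in 11 of 18 alternatives, among them without double mutant 1 (0.0537) or 2 (0.0738), Pu.1-URE-/- 1 (0.0961) or 3 (0.0817), Mdmx-Tg 2 (0.0648) or 3 (0.0555), or Wild-type 2 (0.110) or 3 (0.0612). That of Flt3 (0.0330) was lost in 10, among them without double mutant 1 (0.0840) or 3 (0.0649), Pu.1-URE-/- 2 (0.0644) or 3 (0.0996), Mdmx-Tg 1 (0.0553) or 2 (0.0515), or Wild-type 1 (0.0634), 2 (0.0835) or 3 (0.0637). The calls of Ly6g and Ptprc were lost in none of the 18, an alternative without an adjusted p counting as no loss. The part of these cell type markers in the immunoglobulin levels was not tested.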

How the data were processed

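Per the labels' protocols, RNA was isolated with the RNeasy micro kit from sorted cells, enriched for mRNA and sequenced as paired ends of 100 bases on the BGISEQ-500. The deposited files give, per transcript, estimated counts and TPM, a level corrected for length and depth. Per the submitters' processing notes the tools were FastQC, Salmon and DESeq2 and the build mm10 (GRCm38). Versions, index and settings are not given in the sources used here. Of 116248 transcripts, 115995 matched GENCODE M21, and the 253 others held at most 0.0841% of a library's reads.

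The deposited estimated counts were added up by gene and rounded before testing, and 35.3% of the deposited values were not whole. TPM served as an alternative for shares. All 15012 genes that passed filterByExpr (minimum count 10, minimum total 15) were fitted with edgeR 4.0.16 quasi-likelihood tests in R 4.3.3, with TMM scaling and 1 mean per genotype over 12 libraries, for 7 contrasts. Calls are at a Benjamini-Hochberg adjusted p under 0.05 over all genes, and each p sets a difference of genotype means against the spread between libraries. Fits were tested on simulated data. Alternatives were DESeq2 1.42.0, other scaling, no filter, blocks, only the groups compared, and each library left out. Element loss contrasts the mean of both genotypes without the element with that of both genotypes with it. Each SE of a log2 change is its absolute value divided by the square root of the test's F statistic. The fit itself gives no SE. CPM are counts per 1e6 scaled reads. Wilson intervals (95%) and the floor of 3 reads cover counting error only.

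The members and gene lists were chosen with earlier results of these data known. Genes named are Jchain, the constant genes, the leading variable gene of each library and locus, up to 5 members called per contrast by smallest p, called list genes (up to 4 a list), and Sdc1, Tnfrsf17 and Cd79a. Some marker genes are not reported here. Ighv11-1, Ighv1-85, Ighv1-84, Ighv1-66, Ighv1-31, Ighv10-3, Kit, Pax5, Rag1, Rag2, Xbp1 and Fcgrt were named after their values were seen.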

Additional observations from a re-analysis of the deposited data

Results flagged for a closer look

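The share of reads in immunoglobulin genes and Jchain was 32.6% in Wild-type 1, far above the other 5 libraries with the element, which lay between 0.471% and 11.8%. The Ighm membrane form of Wild-type 1, at 594 CPM, stood as far from the other 5, which had 7.10 to 151 CPM. In double mutant 1 the membrane form was 16.7% of Ighm reads, where the other 5 libraries without the element had 0.893% to 3.00%. In each of these 3 cases the gap to the nearest library was a larger part of the range of its 6 libraries than Dixon's 95% critical value allows. Of 18 values examined in this way 3 stood apart. Chance gives such a gap in about 1 of 20 groups of normally distributed values. These percents and CPM were examined without logs and are not independent of each other, so that rate may not hold for them.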

How the results depend on the processing

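The counts of called members moved most with the tool. By DESeq2 they were 57 for element loss, 45 for double mutants against Wild-type, 43 for double mutants against Mdmx-Tg, 24 for double mutants against Pu.1-URE-/-, 18 for Pu.1-URE-/- against Wild-type, 3 for Mdmx-Tg against Wild-type and 16 for the interaction. The share of all genes called by DESeq2 is not given here, so these counts cannot be read as particular to the members. Replicate numbers did not pair the libraries: same-numbered pairs correlated at -0.153 to 0.0856, and 3 of 12 libraries were closest to their own number. With the replicate block the counts were 13 for element loss, 2 for double mutants against Wild-type, 1 for double mutants against Mdmx-Tg and 1 for Pu.1-URE-/- against Wild-type. With the mouse number series as a block they were 15 for element loss, 2 for double mutants against Mdmx-Tg and 1 for Pu.1-URE-/- against Wild-type. With only the groups compared in the fit they were 13 for double mutants against Mdmx-Tg and 0 for Pu.1-URE-/- against Wild-type. The cause was not tested.

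Leaving out 1 library gave 8 to 27 calls for element loss, 1 to 8 for double mutants against Wild-type, 1 to 8 for double mutants against Mdmx-Tg, 0 to 4 for Pu.1-URE-/- against Wild-type and 0 to 1 for Mdmx-Tg against Wild-type. The group means of described shares moved as follows, for double mutant, Pu.1-URE-/-, Mdmx-Tg and Wild-type in that order. The share of reads in immunoglobulin genes and Jchain was 1.32% to 3.44%, 0.892% to 2.24%, 5.93% to 9.79% and 5.66% to 21.7%. The Ighm share was 98.5% to 99.5%, 90.9% to 92.1%, 92.0% to 95.8% and 97.3% to 98.2%. The membrane share was 1.17% to 9.09%, 1.64% to 2.57%, 0.509% to 0.591% and 0.421% to 0.517%. The kappa share was 97.1% to 98.0%, 74.8% to 88.0%, 85.1% to 91.5% and 63.5% to 79.8%. The leading heavy gene had 39.5% to 68.4%, 26.6% to 34.9%, 24.6% to 25.6% and 26.6% to 34.7%. The leading kappa gene had 57.3% to 74.0%, 17.5% to 20.9%, 15.7% to 18.4% and 21.8% to 30.3%. The leading lambda gene had 70.6% to 91.8%, 72.7% to 90.5%, 63.8% to 80.9% and 82.8% to 96.7%.

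By TPM the share of immunoglobulin genes and Jchain averaged 6.72% in double mutants, 5.20% in Pu.1-URE-/-, 21.4% in Mdmx-Tg and 30.06% in Wild-type, and the Ighm share 88.1% in Pu.1-URE-/- and 96.9% in Wild-type. With pseudogenes added, an alternative chosen after seeing the data, the leading heavy gene of Mdmx-Tg averaged 23.1%. No named gene that was called changed sign in an alternative, but without Wild-type 2 the 2 lower calls of Pu.1-URE-/- against Wild-type gave way to 1 higher. Few immunoglobulin reads limit the shares of double mutant 1, and 3 libraries a genotype limit every comparison.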
